A study of Prunus dulcis and Prunus persica and Prunus persica x Prunus dulcis with 15 samples.

Results

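Among the transposable elements (TEs) annotated in the peach genome, a group of short copies that are not miniature inverted-repeat transposable elements (MITEs) was methylated in the CHH context at levels that many MITEs also reached. These TEs, called high-CHH TEs here, were chosen on their measured values: a copy was included when its CHH methylation in peach was at least 40% and its name was not that of a MITE family. The rule found 1165 of the 33879 TEs listed in the peach table, or 1165 of the 19488 non-MITE TEs that had a CHH value in peach. The remaining 18323 non-MITE TEs with a value, and the 1820 of 3656 measured MITEs that also reached 40%, served for comparison. Because the peach CHH level chose the group, that level is given as a description only, and no difference in it is tested.

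The values came from whole-genome bisulphite sequencing of fully expanded leaves of field-grown, normally watered trees collected at the end of September: the peach cultivar Early Gold, the almond cultivar Texas, and the F1 hybrid between them. Each genotype had 2 bisulphite libraries, but the tables give 1 value per TE, genotype and context (CG, CHG and CHH). This value was read as combining both libraries. No spread between replicates can therefore be computed, no p-value is given, and every difference below is between 1 peach value and 1 hybrid value of the same TE. Hybrid reads were aligned to the peach genome with settings that let reads of both parental subgenomes align, so a hybrid value can mix the peach copy with similar almond sequence.

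DNA methylation in plants is kept by separate pathways in the different contexts. CG methylation is copied at replication by MET1, CHG methylation is maintained by chromomethylase 3 through a loop with histone H3 lysine 9 methylation, and CHH methylation has to be laid down anew, either by RNA-directed DNA methylation (RdDM), which uses 24-nt small RNAs and acts mostly on short TEs and TE edges in euchromatin, or by chromomethylase 2, which acts mostly in the bodies of long heterochromatic TEs. LTR retrotransposons move through an RNA copy and carry a long terminal repeat at each end. Recombination between these repeats leaves a single repeat behind, a solo LTR. MITEs are short, non-autonomous DNA transposons, and TIR elements are DNA transposons with terminal inverted repeats. These pathways were described mainly in Arabidopsis and maize, and none of them was measured in these tables.

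The name "non-MITE" held only in part. Of the 1165 high-CHH TEs, 367 (31.5%) overlapped a MITE of the same table by at least 1 bp, against 386 (2.11%) of the other non-MITE TEs. The overlap was nearly complete: 349 of the 367 were covered by MITEs over at least 90% of their length, and the median coverage was 100%. Among TEs under 500 bp the shares were 38.5% of 920 high-CHH TEs and 3.05% of 3602 others. For 63 of the 367 the peach CHH value was identical to that of the MITE. These copies are thus sequences annotated both as an LTR retrotransposon or other repeat and as a MITE, and most results below are also given for the 798 high-CHH TEs that overlapped no MITE.

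Copies of 10 MITE families were involved, and 2 of them accounted for 338 of the 367 overlapping copies (92.1%). Family SE320600034fam39 had 724 copies of median length 417 bp and a median peach CHH level of 52.5% over the 400 with a value. Of the 310 measured non-MITE TEs it overlapped, 214 were high-CHH TEs. Family SE320200071fam68 had 674 copies of median length 352 bp and a median CHH level of 71.3% over the 163 with a value. It overlapped 158 measured non-MITE TEs, 124 of them in the group. For the next family, SE320500118fam103, these numbers were 17 and 14. The most abundant MITE family among those overlapped, Prupefam5 with 2251 copies, had a median CHH level of only 10.2% over 450 copies with a value. It overlapped only 67 measured non-MITE TEs, of which 2 were high-CHH TEs.

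By their names, 1078 high-CHH TEs (92.5%) were copies of LTR retrotransposons and 87 (7.47%) came from the REPET annotation, which holds the other retrotransposons and the DNA transposons. Among the other non-MITE TEs 69.2% were LTR copies. The superfamily was at hand for 966 high-CHH TEs: 638 were LTR retrotransposons that had not been assigned to a superfamily, 188 were copia, 75 were gypsy, 64 were TIR elements and 1 was a LINE, a retrotransposon without LTRs. For the remaining 199 (17.1%), and for 8892 (48.5%) of the other non-MITE TEs, it was not at hand, so the following shares are of copies with a known superfamily only. Of these, 15.1% of the 4229 measured unclassified LTR copies were high-CHH TEs, as were 11.0% of 1710 copia copies, 4.17% of 1800 gypsy copies and 3.19% of 2005 TIR copies, but 1 of 509 LINE copies (0.196%). Of the 9091 measured TEs without a known superfamily 2.19% were high-CHH TEs. Most of the group thus belonged to unclassified LTR and copia elements.

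The type of copy was at hand only for the first part of chromosome Pp01, up to position 13272136. Of the 75 high-CHH TEs there, 58 (77.3%) were solo LTRs, with a median length of 291 bp, 9 were truncated LTR copies and 8 were REPET copies. None of the 128 complete LTR retrotransposons measured in that stretch reached 40% CHH methylation, against 58 of 347 solo LTRs (16.7%) and 9 of 246 truncated copies (3.66%). Solo LTRs made up 30.5% of the 947 other non-MITE TEs of the stretch. Much of this contrast went with length: under 500 bp all 53 high-CHH TEs were solo LTRs, but so were 163 of the 197 others (82.7%), and of the 22 high-CHH TEs of 500 bp or more only 5 were.

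High-CHH TEs were short. Their median length was 294 bp (interquartile range 241 to 437 bp, from 93 to 8051 bp), against 2258 bp for the other non-MITE TEs and 381 bp for the MITEs at or above 40%. Copies under 500 bp made up 79.0% of the group and 19.7% of the other TEs, and 93 high-CHH TEs (7.98%) were 1000 bp or longer. The share of measured TEs that were in the group was lower in each longer length class: 23.4% of 2600 TEs under 300 bp, 16.2% of 1922 from 300 to 500 bp, 5.93% of 2563 from 500 to 1000 bp, 1.54% of 2661 from 1000 to 2000 bp, 0.774% of 5686 from 2000 to 5000 bp, and 8 of 4056 (0.197%) above that. Without the TEs that overlap a MITE the same classes held 17.9%, 8.54%, 5.62%, 1.57%, 0.751% and 0.202%, so the order of the classes was the same, with lower shares below 500 bp. A percentage over a short TE rests on few cytosines and spreads more widely, and the number of cytosines behind each value is not given in the tables; its part in this pattern was not tested.

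**Figure D1:**
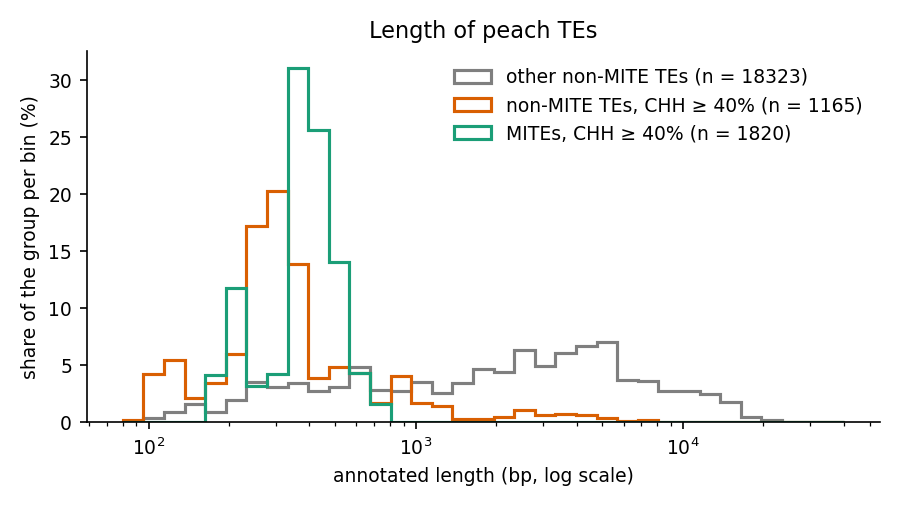
Length of the high-CHH TEs (orange), the other measured non-MITE TEs (grey) and the MITEs at or above 40% CHH methylation (green); the horizontal axis is length in bp on a log scale and the vertical axis the percentage of each group in a bin. The high-CHH TEs peak near their median of 294 bp, close to the MITEs (median 381 bp), while the other TEs are centred near 2258 bp.

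High-CHH TEs lay in surroundings with few TEs. Within 50000 bp to each side, a median of 15.3% of the sequence was covered by annotated TEs (interquartile range 6.83% to 27.4%), against 33.6% (19.5% to 47.9%) around the other non-MITE TEs and 12.7% around the MITEs at or above 40%. The difference was also present among TEs under 500 bp (14.9% against 30.1%) and among those of 500 bp or more (16.4% against 34.6%), and the 798 high-CHH TEs without a MITE overlap had a median of 15.7%. Where TEs covered less than 10% of the surroundings, 413 of 2237 measured TEs (18.5%) were in the group, and where they covered 50% or more, 45 of 3991 (1.13%) were. For TEs under 500 bp these shares were 41.3% and 5.09%. Gene positions in peach were not used here, so the distance to genes is not given.

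**Figure D2:**
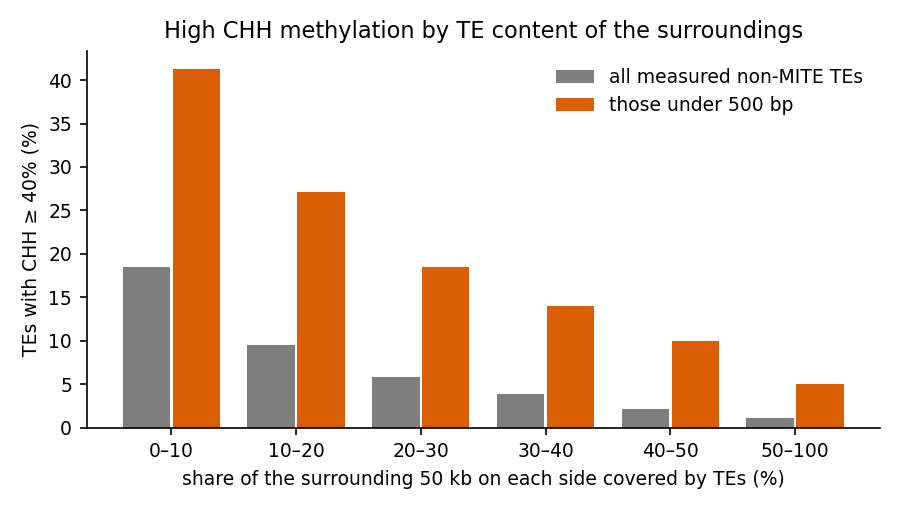
Percentage of measured non-MITE TEs that are high-CHH TEs (vertical axis) by the percentage of the surrounding 50000 bp on each side that is covered by annotated TEs (horizontal axis, 6 classes), for all lengths (grey) and for TEs under 500 bp (orange). In both series the share is lower in every denser class, from 18.5% to 1.13% for all lengths and from 41.3% to 5.09% for short TEs.

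All 8 chromosomes carried high-CHH TEs, from 93 on Pp05 to 276 on Pp01. As a share of the measured non-MITE TEs of a chromosome they ranged from 4.46% on Pp02 and 4.72% on Pp08 to 6.90% on Pp01 and 7.003% on Pp05. None of the 17 measured TEs on unplaced scaffolds was in the group. Counted by locus, the 1165 TEs made up 1145 places, since 38 of them overlapped another high-CHH TE.

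High-CHH TEs were heavily methylated in the other contexts too. Their median CG level in peach was 95.7% (n = 842, interquartile range 92.2% to 97.3%), close to the 96.2% of the other non-MITE TEs and the 95.4% of the MITEs at or above 40%. Their median CHG level was 81.8% (n = 899, 71.3% to 88.7%), against 70.6% in the other non-MITE TEs and 81.7% in those MITEs. A CHG level of at least 80% was found in 53.9% of the high-CHH TEs and 21.5% of the other TEs. Among TEs under 500 bp the CHG medians were 81.6% and 67.6%, so the gap was also present at short length. CG levels, by contrast, were near their ceiling in each of these groups.

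The copies that overlap a MITE had the higher CHH and the lower CHG levels. Their medians were 67.5% CHH and 74.6% CHG, against 55.2% CHH and 84.1% CHG in the copies without an overlap. The TIR members had medians of 97.0% CG, 76.0% CHG and 53.6% CHH. No CG value was listed for 323 high-CHH TEs (27.7%), against 4.43% of the other non-MITE TEs. The CG and CHG summaries therefore leave out more of the high-CHH TEs than of the others.

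**Figure D3:**
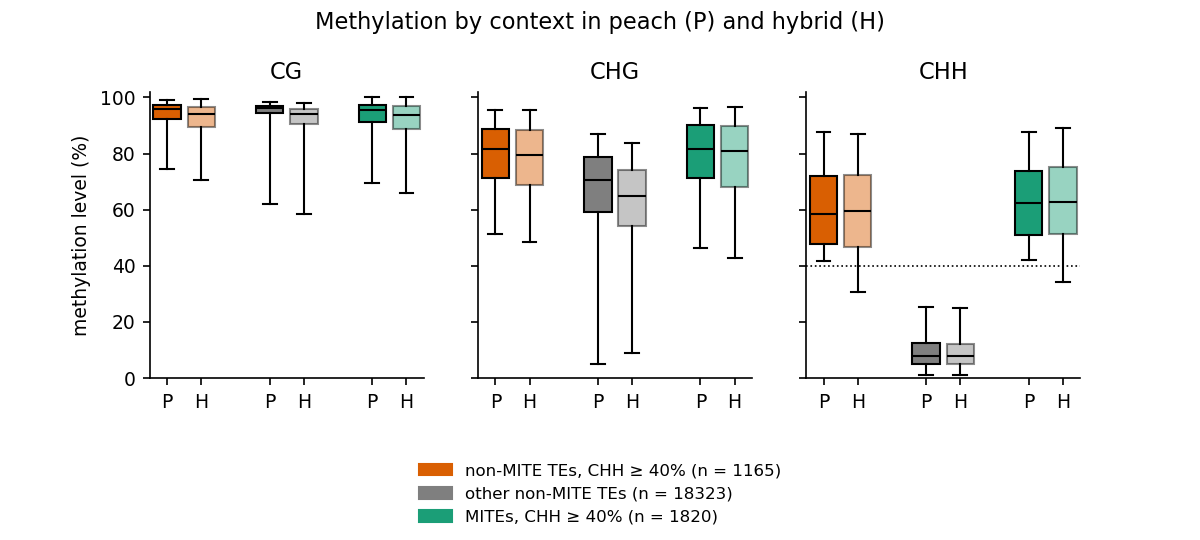
Methylation level in percent (vertical axis) in the CG, CHG and CHH contexts in peach (P, solid boxes) and in the hybrid aligned to the peach genome (H, pale boxes) for high-CHH TEs (orange), other non-MITE TEs (grey) and MITEs at or above 40% (green); boxes span the quartiles with the median as a line, whiskers run from the 5th to the 95th percentile, and n counts TEs with a peach CHH value. The high-CHH TEs had CG and CHG medians near those of the MITEs and stood above the other TEs in CHG (81.8% against 70.6%). Of the 1165 high-CHH TEs 367 overlap a MITE, and the CHG median was 74.6% in these and 84.1% in the rest. In CHH, the likeness to the MITEs and the gap to the other TEs were set by the choice at 40% (dotted line).

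Within the group, CHH levels ran from 40.04% to 99.0% with a median of 58.5% (interquartile range 47.9% to 71.9%). There were 343 TEs from 40% to 50%, 276 from 50% to 60%, 206 from 60% to 70%, 182 from 70% to 80% and 158 (13.6%) at 80% or more. The median CHG level was 80.02%, 78.7%, 82.1%, 83.2% and 88.2% in these 5 bands, highest in the top band. The share that overlapped a MITE was 16.0%, 26.4%, 36.9%, 48.9% and 46.8%, so the upper bands contained more of the doubly annotated copies. Across single TEs CHH and CHG levels were weakly related (Pearson's r = 0.238, Spearman's rho = 0.217, n = 899), and CHH and CG levels still less (r = -0.0624, rho = -0.135, n = 842). These coefficients are across TEs of the same libraries, which are not independent replicates.

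The threshold cut through a continuous range. Just inside it, TE_6001 and TE_6002 are names for nearly the same stretch of Pp01 (positions 39115403 to 39117774 and 39115404 to 39117774) and had the same CHH level of 40.04%, followed by TE_4726 with 40.07%. Just outside it, TE_11898 had 39.96%, TE_16960 39.89% and TE_1388 39.87%. Positions here and below are those of the peach table, whose genome build is not given in the sources used here.

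The highest CHH level among high-CHH TEs of at least 200 bp with a value in every context and in both genotypes was that of TE_5269, a 348-bp copy of Ppersica_LTRretrotransposon4114 on Pp01 (31904622 to 31904969) that lay wholly within a MITE of family SE320200071fam68. It had 93.6% CHH, 96.6% CHG and 89.6% CG methylation in peach, and 95.4%, 92.7% and 95% in the hybrid. TE_31573 on Pp08 (4238232 to 4238512), a copy of Ppersica_LTRretrotransposon3876, had a CHH level of 91.8% in peach and 95.3% in the hybrid. A MITE of family SE320600034fam39 overlapped 278 of its 281 bp. TE_11587 on Pp02 (25016208 to 25016453), which overlapped no MITE, had 90.6% and 89.99%, and the copia copy TE_10836 on the same chromosome (18640501 to 18640871) 89.996% and 90.4%. In these 4 copies methylation was nearly complete in all contexts, so that CHH sites were about as methylated as CG sites. The next 4 (TE_6890, TE_30184, TE_6319 and TE_1363) had 86.2% to 89.4% in peach and 79.6% to 83.6% in the hybrid, each lower in the hybrid. MITEs also overlapped TE_6890 (342 of 342 bp) and TE_6319 (275 of 276 bp), but not TE_10836, TE_30184 or TE_1363.

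Long copies were the exception in the group. The longest, TE_12032, was an 8051-bp gypsy copy of Ppersica_LTRretrotransposon1088 at the very start of Pp03 (53 to 8103), with a CHH level of 42.2% in peach and 48.8% in the hybrid. TE_4326 (7720 bp, Pp01) had 44.5% and 53.8%, TE_30795 (6500 bp, Pp07) 51.9% and 56.9%, and TE_27621 (5602 bp, Pp07) 43.3% and 26.5%. Of these 4 long copies only the last was lower in the hybrid.

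The group was spread unevenly over repeats, and this spread was not compared with that of all measured TEs. Copies in peach and almond carry the name of the repeat they were annotated with, and 319 of the 3586 repeats with a measured peach copy had at least 1 high-CHH TE. Of these, 203 had a single one and 23 had 10 or more. The 8 repeats with the most held 388 of the 1165 (33.3%). Among the 1022 repeats with at least 5 measured copies, 34 had 50% or more of those copies in the group.

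A repeat's name carries Ppersica (Prunus persica, peach) or Pdulcis26 (Prunus dulcis, almond), but repeats of either name had copies in peach. Pdulcis26_LTRretrotransposon655 held 83 high-CHH TEs among its 118 measured peach copies, Ppersica_LTRretrotransposon2281 held 66 of 90 and Ppersica_LTRretrotransposon1994 held 63 of 76. The median CHH level of all measured copies of these 3 unclassified LTR repeats was 53.1%, 55.1% and 57.5%, and 66, 53 and 51 of their high-CHH copies overlapped a MITE. In Pdulcis26_LTRretrotransposon307, 40 of 43 measured copies were in the group, the median of all copies was 79.8% and all 40 overlapped a MITE. Likewise 36 of the 38 high-CHH copies of the copia repeat Ppersica_LTRretrotransposon3956 (45 measured, median 72.8%) and 16 of the 23 of Ppersica_LTRretrotransposon3876 (48 measured, median 31.5%) did. These 6 repeats are therefore largely the doubly annotated copies described above.

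The remaining 2 of the 8 had no MITE overlap among their high-CHH copies. Tedenovo8576, a TIR element, had 41 high-CHH TEs among 96 measured copies, with a median length of 910 bp and a median CHH level over all copies of 32.8%. Ppersica_LTRretrotransposon5337, whose copies are about 122 bp long, had 34 among 104, with a median over all copies of 25.3%. In both repeats the copies covered most of the scale, up to 86.1% in the TIR element and 90.9% in the LTR repeat, and fewer than 50% were in the group.

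Ordered by the share of copies in the group, every measured copy of Pdulcis26_LTRretrotransposon607 (10 of 10, median 66.3%) and of Ppersica_LTRretrotransposon1173 (5 of 5) was a high-CHH TE, and none of these overlapped a MITE. Ppersica_LTRretrotransposon1963 had 15 of 17 (median 65.0%), 12 of them overlapping a MITE, and Pdulcis26_LTRretrotransposon2117 had 5 of 6 (median 75.6%), all 5 overlapping one. Ppersica_LTRretrotransposon43 had 6 of 7 (median 93.8%), none with an overlap. Only 7 of the 431 listed copies of Ppersica_LTRretrotransposon43 had a CHH value, so its share describes few of its copies. Most listed copies also lacked a value in Pdulcis26_LTRretrotransposon307 (43 of 138 measured), Ppersica_LTRretrotransposon3956 (45 of 126), Ppersica_LTRretrotransposon1994 (76 of 169), Ppersica_LTRretrotransposon1963 (17 of 57) and Pdulcis26_LTRretrotransposon2117 (6 of 30). In Tedenovo8576 96 of 106 were measured, and in Ppersica_LTRretrotransposon5337 104 of 125.

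**Figure D4:**
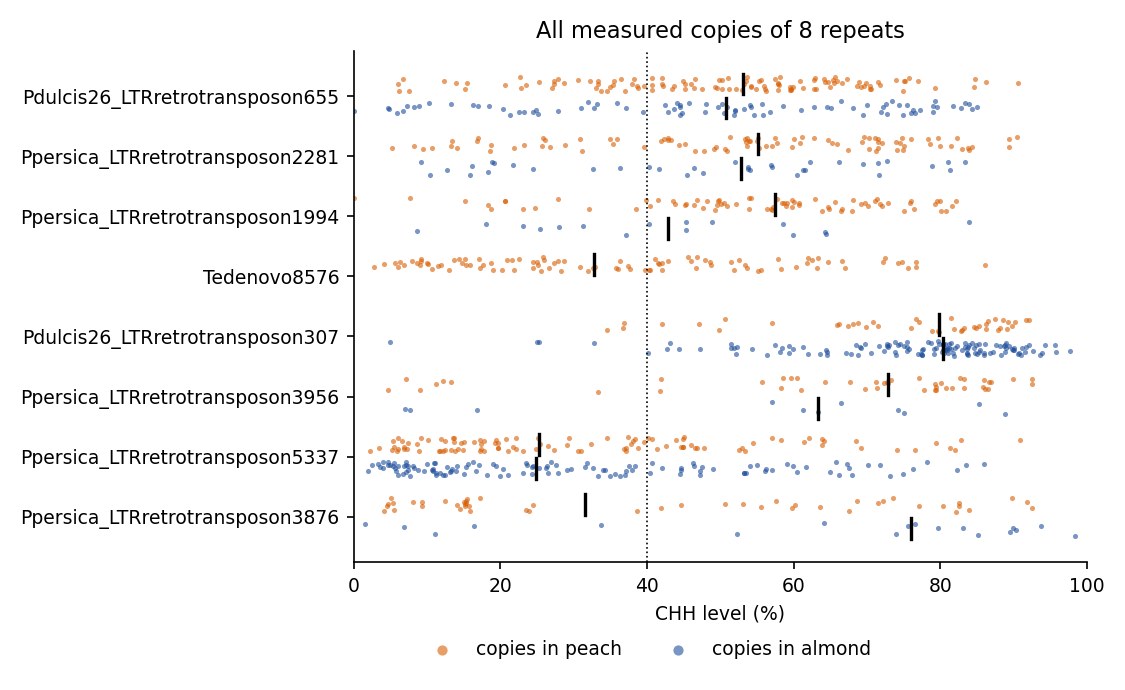
CHH level in percent (horizontal axis) of every measured copy of the 8 repeats with the most high-CHH TEs (vertical axis), in peach (orange) and in almond (blue); each point is 1 copy, the black bars are medians, the dotted line is the threshold of 40%, and the vertical scatter within a row only separates points; Tedenovo8576 was not matched in almond. Copies of Pdulcis26_LTRretrotransposon307 cluster near 80% in both species (medians 79.8% and 80.3%), whereas those of Ppersica_LTRretrotransposon5337 spread over the scale with medians near 25%.

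Copies of the same 8 repeats that were not in the group allowed a comparison within repeats. The 388 high-CHH copies and the 232 others had median lengths of 290 and 283.5 bp. The largest gap within a repeat was in Ppersica_LTRretrotransposon3876 (277 against 408 bp). TEs covered 14.2% of the surroundings of the former and 24.8% of the latter, and the median was lower around the high-CHH copies in 7 of the 8 repeats, the exception being Pdulcis26_LTRretrotransposon307 (14.5% against 5.79%), which had only 3 other copies. The median CHG level was 74.0% against 56.3%, and higher in the high-CHH copies in 7 of the 8 repeats, the exception here being Ppersica_LTRretrotransposon3876 (81.5% against 83.9%). A MITE overlapped high-CHH copies about as often as other copies in Pdulcis26_LTRretrotransposon655 (79.5% against 80%), in all copies of Pdulcis26_LTRretrotransposon307 and in none of Ppersica_LTRretrotransposon5337. It overlapped them more often in Ppersica_LTRretrotransposon1994 (81.0% against 61.5%), Ppersica_LTRretrotransposon2281 (80.3% against 66.7%), Ppersica_LTRretrotransposon3956 (94.7% against 71.4%) and Ppersica_LTRretrotransposon3876 (69.6% against 28.0%). The lower TE content around high-CHH copies was thus also seen within most of these repeats.

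The almond table was not used to choose the group and gives the same measure in another species. Only LTR repeats were matched between the species, since 53 of the 946 REPET names of the peach table occur in the almond table and a shared number there need not mean a shared repeat. Of the 283 LTR repeats with a high-CHH TE in peach, 221 also had a measured copy in almond. Of their 2425 almond copies 544 (22.4%) had a CHH level of at least 40%, against 232 of 11311 copies (2.05%) of all other LTR repeats and 865 of 19410 (4.46%) over all almond non-MITE TEs. Among almond copies under 500 bp the shares were 532 of 1295 (41.1%) and 139 of 2320 (5.99%). Leaving out almond copies that overlap a MITE gave 241 of 1696 (14.2%) against 221 of 10841 (2.04%), and among those under 500 bp 236 of 841 (28.1%) against 130 of 2210 (5.88%). Pdulcis26_LTRretrotransposon307 alone supplied 130 of the 544, and without it the share was 18.1%. High CHH levels were thus more frequent in almond among copies of the repeats with high-CHH TEs in peach, by less where MITE overlaps were left out.

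The LTR repeats among the 8 showed this by name. In Pdulcis26_LTRretrotransposon307, 130 of 134 almond copies were at or above 40%, with a median of 80.3%. The medians of Pdulcis26_LTRretrotransposon655 (84 almond copies, 50.8%), Ppersica_LTRretrotransposon2281 (36 copies, 52.9%) and Ppersica_LTRretrotransposon5337 (124 copies, 24.8%) were close to those in peach. Those of Ppersica_LTRretrotransposon1994 (16 copies, 42.8%) and Ppersica_LTRretrotransposon3956 (11 copies, 63.3%) were lower than in peach, and that of Ppersica_LTRretrotransposon3876 (18 copies, 76.1%) was higher. The TIR element Tedenovo8576 was not compared, since REPET names were not matched between the tables.

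In the hybrid, 698 of the 1165 high-CHH TEs had a CHH value on the peach genome and 467 (40.1%) had none, against 11.3% of the other non-MITE TEs. Among TEs under 500 bp the shares without a value were 43.8% and 28.9%. What follows describes only the 698 TEs that kept a value. Of these, 600 (86.0%) were at or above 40% in the hybrid as well, 71 lay between 30% and 40%, and 27 were under 30%, among them 9 under 20%. Conversely, 785 non-MITE TEs reached 40% in the hybrid. They comprised the 600, 151 TEs that were under 40% in peach and 34 without a peach value. The medians of the high-CHH TEs in the hybrid were 94.2% CG (n = 498), 79.6% CHG (n = 502) and 59.4% CHH.

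The CHH level of single high-CHH TEs was similar in the hybrid and in peach (Pearson's r = 0.780, Spearman's rho = 0.787, n = 698). The mean difference, hybrid minus peach, was -0.367 percentage points (SD 10.9 over TEs, n = 698) with a median of -0.137 and an interquartile range of -6.27 to 5.70. It was negative for 353 of the 698 (50.6%). A CHH level at least 10 points lower was found in 108 TEs (15.5%), against 2.95% of all TEs of the table with both values, and one at least 10 points higher in 105 (15.0%), against 3.38%. The other non-MITE TEs had a median peach CHH level of 7.97%, so many TEs of the table could not fall by 10 points. Among the MITEs at or above 40%, 16.1% were at least 10 points lower and 10.1% at least 10 points higher. Since both groups were chosen on their peach CHH level, these shares are descriptions.

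The sign of the mean depended on which genotype chose the TEs. By construction, a choice on the peach level favours high peach values, and a choice on the hybrid level high hybrid values. For the 751 non-MITE TEs at or above 40% in the hybrid the mean CHH difference was 4.91 points, and for the 694 TEs whose mean over peach and hybrid was at or above 40% it was 2.52 points. In these sets 47 and 67 TEs were at least 10 points lower in the hybrid and 209 and 144 at least 10 points higher, so the near balance of 108 and 105 holds only for the choice on the peach level. The mean was 0.191 for the high-CHH TEs without a MITE overlap, -1.76 for those with one, and -1.16 for the MITEs at or above 40%. By length, the median difference was -0.938 below 300 bp (n = 344), -0.747 from 300 to 500 bp (n = 173), 1.22 from 500 to 1000 bp (n = 119), 5.50 from 1000 to 2000 bp (n = 25), 6.26 from 2000 to 5000 bp (n = 31) and 2.57 in the 6 of 5000 bp or more. The longer members were on balance higher in the hybrid and the short ones slightly lower, each class with an SD of about 10 to 13 points over its TEs. By chromosome the mean ran from -1.51 on Pp06 to 3.22 on Pp08.

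**Figure D5:**
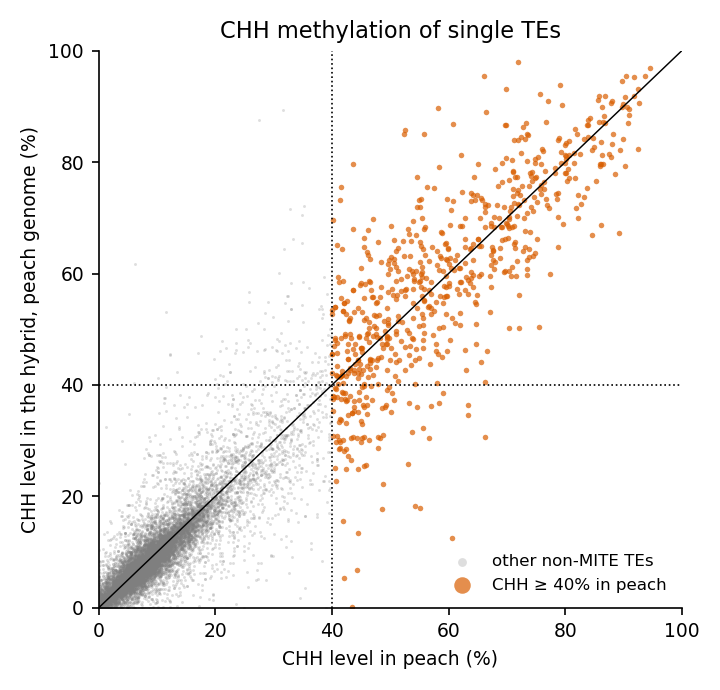
CHH level in percent in the hybrid on the peach genome (vertical axis) against that in peach (horizontal axis) for the 698 high-CHH TEs with both values (orange) and the other non-MITE TEs (grey); each point is 1 TE, the solid line marks equality and the dotted lines 40% in each genotype. The orange points lie to both sides of the line, 353 of 698 below it, and 600 of them are above 40% in the hybrid.

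In the CHG context the mean difference of the high-CHH TEs was -2.80 points (SD 10.5 over TEs, median -2.06, n = 489), and the level was lower in the hybrid in 62.2% of them. It was at least 10 points lower in 84 (17.2%), against 18.9% of all TEs, and at least 10 points higher in 29 (5.93%), against 4.77%, both shares near those of all TEs. The other non-MITE TEs had a mean of -4.83 points, and 81.8% of them were lower in the hybrid. Among TEs under 500 bp the means were -2.84 for the high-CHH TEs and -4.63 for the others, and among TEs with a peach CHG level of 70% to 90% they were -3.54 (n = 281) and -6.05 (n = 8081). The mean CHG level was thus lower in the hybrid in both groups and by less in the high-CHH TEs than in the other non-MITE TEs. The MITEs at or above the CHH threshold had a mean CHG difference of -3.12 points (n = 779), and 60.6% of them were lower. These MITE values were close to those of the high-CHH TEs, so the smaller difference was not particular to the high-CHH TEs. Differences of at least 10 points did not follow the means throughout: at a peach CHG level of 70% to 90% levels were lower by that much in 57 of the 281 high-CHH TEs (20.3%) and in 1308 of the 8081 others (16.2%). By chromosome the mean CHG difference of the high-CHH TEs ran from -6.50 on Pp07 to 0.0275 on Pp08.

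In the CG context the mean difference was -1.95 points (SD 7.36 over TEs, median -1.04, n = 492), with 64.6% of the high-CHH TEs lower in the hybrid. A level at least 10 points lower was found in 40 (8.13%), against 7.12% of all TEs, and one at least 10 points higher in 12 (2.44%), against 1.95%. The other non-MITE TEs had a mean of -2.41 and the MITEs at or above 40% a mean of -1.95. These CG shares were near those of all TEs.

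The TIR members had a mean difference of 3.77 points in CHH (SD 11.4, n = 40), 0.759 in CHG (SD 11.4, n = 22) and -0.721 in CG (SD 3.38, n = 41). The TIR element Tedenovo8576 contributed a median of 2.58 in CHH (26 copies) and 8.02 in CHG (13 copies). Among the LTR repeats, Pdulcis26_LTRretrotransposon307 had a median CHH difference of -8.76 (19 copies) and Ppersica_LTRretrotransposon3956 one of 5.10 (18 copies), although all 40 high-CHH copies of the former and 36 of the 38 of the latter overlap MITEs. The other 5 repeats had medians from -2.18 to -0.30.

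A few single copies differed far more than the group. TE_22080, a 583-bp copy of Ppersica_LTRretrotransposon3534 on Pp05 (11457459 to 11458041), had 56.3% CG, 52.3% CHG and 43.5% CHH methylation in peach, and 0.781%, 0% and 0.0847% in the hybrid, and was thus without appreciable methylation in any context. TE_30493, a 2591-bp copy of Ppersica_LTRretrotransposon2045 on Pp07 (17766978 to 17769568), had a CHH level of 44.2% in peach and 6.72% in the hybrid and a CHG level of 66.4% and 24.1%, but its CG level was 85.8% and 85.5%. Non-CG methylation was lower there while CG methylation was not. TE_24525 on Pp06 (11582710 to 11582991) had a CHH level of 55.1% in peach and 17.9% in the hybrid. Its CHG levels were 57.8% and 23.3% and its CG levels 98.0% and 84.6%. A MITE of family SE320600034fam39 overlapped 280 of its 282 bp. TE_12815 on Pp03 (6449127 to 6449613) had CHH levels of 54.2% and 18.4%. Its CHG levels were 87.3% and 85.6%, so that in TE_12815 the difference was mainly in CHH.

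The largest differences in the opposite direction were in TE_21754, a 1168-bp copy of Ppersica_LTRretrotransposon18 on Pp05 (8724050 to 8725217), with a CHH level of 43.6% in peach and 79.7% in the hybrid. TE_22980, a copia copy on Pp06 (1647110 to 1647344), had 52.4% and 85.1%, TE_29648 on Pp07 (11467814 to 11468698) 41.4% and 73.3%, and the TIR copy TE_5054 on Pp01 (30196416 to 30197282) 71.9% and 97.9%. In all 4 the CHG difference was under 5 points, and the CHG level of TE_5054 was at its ceiling of 100% in the hybrid. CG levels differed more in some of them. TE_29648 had 71.4% CG methylation in peach and 92.6% in the hybrid, TE_22980 94.6% and 81.6%, TE_21754 95.2% and 87.8%, and TE_5054 93.9% and 92.9%. For CHG itself, TE_27577 on Pp07 (681620 to 681864) had 81.8% in peach and 37.5% in the hybrid, and TE_28588 on the same chromosome (5848050 to 5848320) 64.1% and 26.8%. TE_28588 had a CHH level of 78.8% in peach and 84.0% in the hybrid, opposite in sign to its CHG difference. TE_20514 on Pp05 (1698167 to 1698331) had CHG levels of 63.2% and 97.9%, and TE_4455, TE_2393 and TE_5405 on Pp01 were 28.4 to 30.8 points higher in the hybrid. TE_28588 was the only CHG extreme named here whose CHH difference had the opposite sign. The CHH level of TE_27577, for example, was 48.6% in peach and 17.8% in the hybrid, and that of TE_20514 60.8% and 86.8%. These extremes were picked for their size among 411 TEs with all values, and with 1 value per genotype no error can be set against any of them.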

How the data were processed

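Percent methylation per TE and context was taken from the tables deposited by the authors. Per the study's methods and the submitters' processing notes, reads were aligned with Bismark 0.19.1 keeping unique best alignments, parental reads to their own genome and hybrid reads to each parental genome; SeqMonk gave percentages per annotated TE over cytosines that passed a minimum coverage, for TE copies with reads over a minimum part of their length. The tables hold 1 column per genotype and context, which was read as combining both libraries, and neither depth nor coverage per TE is known. A value on a short TE is less precise, and no interval can be given.

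TEs were read as MITEs when their name held a MITE family number, and all measures were computed with pandas 2.3.3 and numpy 2.4.6. Overlap lengths, the TE share of the surroundings, the grouping into loci and a mean difference were checked on simulated data. Classes and copy types were looked up by name or position in the study's TE annotation, held in part. Overlap needed 1 bp. Surroundings were 50000 bp on each side, leaving out the TE itself. Named TEs were the 8 with the highest peach CHH level (200 bp or more, all values present), the 4 largest differences each way in CHH and CHG, the 4 longest, and the 3 on each side of the threshold. Named repeats were the 8 with the most members and the 8 with the highest share of members among those with 5 or more copies. Members, lists and comparisons were chosen with earlier results of these data known. RNA tables, which pool copies by family, were not used here.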

Additional observations from a re-analysis of the deposited data

How the results depend on the processing

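Depth limits every single value, since the number of cytosine calls per TE is unknown. Leaving out a replicate could not be run because the values are not given per library. No paired analysis was possible because the tables hold 1 value per genotype and their columns carry no replicate number. The rule gave 1706 TEs at a threshold of 30%, 822 at 50% and 798 without MITE overlaps. The sign turned in 6 recomputed values, all of them CHH or CHG differences given here. The share of LTR copies was 89.2% without MITE overlaps and 67.3% at 500 bp or more. The share overlapping a MITE was 24.6% at a 30% threshold, 37.96% at 50% and 35.8% when a MITE within 500 bp counted. The share without a hybrid CHH value was 34.5% at 30%, 43.6% at 50% and 26.1% at 500 bp or more. The share of almond copies at or above 40% was 14.2% without MITE overlaps in either species, 33.5% for repeats with at least 3 members and, chosen after seeing the data, 14.2% for almond copies without MITE overlap and 18.1% without Pdulcis26_LTRretrotransposon307. The CHH difference was -0.665 at a 30% threshold, -0.137 as a median, 0.191 without MITE overlaps, 2.09 at 500 bp or more, 4.91 and 2.52 when chosen on the hybrid or the mean level, from -1.51 to 3.22 by chromosome and, chosen after seeing the data, -1.23 under 500 bp; its sign is thus not settled. The CHG difference was -3.77 at a 30% threshold, -0.980 and -1.80 when chosen on the hybrid or the mean level and from -6.50 to 0.0275 by chromosome. The CG difference was -1.04 as a median, -0.793 at 500 bp or more and from -3.74 to -0.266 by chromosome. Why these values moved was not tested. By construction, the choice on the peach level favours high peach values and the choice on the hybrid level high hybrid values. Also chosen after seeing the data, the CHG comparisons under 500 bp and at CHG levels of 70% to 90% kept the direction of the means.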

Other observations

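One gypsy repeat, Ppersica_LTRretrotransposon1088, was noticed after its values were seen, because the longest high-CHH TE belongs to it. Of its 33 listed copies 28 lay within 100000 bp of a chromosome end, taken as the first base or the end of the last annotated TE. The share of all TEs that lie so near an end was not computed. Peach CHH levels of the 22 measured copies ran from 2.77% to 66.3%, with a median of 23.9%, and 5 copies, all near an end, were at or above 40%. In the hybrid 15 of the 17 copies with both values had a higher CHH level. The median difference over the 17 was 7.11 points (from -5.36 to 22.6). A level at least 10 points higher was found in 6, against 3.38% of all TEs with both values. Of the 17, TE_12030 on Pp02 (30385171 to 30387085) lay wholly within TE_12029 (30381837 to 30387372), and both were higher. The copies are thus not all separate places. The median CHG difference of the repeat was -0.314. For the 113 other non-MITE TEs near an end the median CHH difference was -0.330, and 41.6% were higher in the hybrid. Copies of a repeat share sequence and are not replicates, and each difference rests on 1 value per genotype.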
